A study of Mus musculus with 7 samples.

Results

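The genes described here are 5 inflammatory chemokine genes measured in the mouse spleen, the ligands Ccl5, Xcl1, Ccl3 and Ccl4 and the receptor Ccr1. They were taken by gene symbol, with every probe set that the platform annotation assigns to 1 of these symbols alone, which gave 5 of 12393 annotated genes and 6 probe sets. Chemokines are small secreted proteins that direct the movement of leukocytes, and each acts through a G protein-coupled receptor on the responding cell. Ccl3, Ccl4 and Ccl5 are secreted by activated T cells, natural killer cells and myeloid cells and attract further T cells, monocytes and macrophages. Xcl1 is made by natural killer cells and activated CD8 T cells and acts on dendritic cells that carry Xcr1, while Ccr1 is a receptor of Ccl3 and Ccl5 on myeloid cells and some T cells. In graft-versus-host disease, in which donor T cells attack the tissues of the transplant recipient, these ligands are known for drawing effector cells into lymphoid organs and target tissues.

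All recipients were female C57BL/6 (B6) mice, 9 to 12 weeks of age, that were irradiated with 10.0 Gy and received splenocytes by vein 4 to 6 h later. The syngeneic group (1 array) was given B6 cells, and no antibody is named for it. The 3 allogeneic groups (2 arrays each) were given cells of the MHC-mismatched strain C3H, together with an isotype antibody, with anti-ICOSL mAb from day 0, or with anti-ICOSL mAb from day 3. ICOSL is the ligand of ICOS, a costimulatory receptor of activated T cells. The first dose of antibody was 500 µg and later doses, every other day, were 200 µg. The day on which the isotype antibody began is not given. Spleen cells were collected on day 4 after transplantation, so the day 3 group had been under antibody for the last day only, and the spleen held both donor cells and what the irradiated host retained. There were 4 mice per allogeneic group and experiment, and the design states that combined RNA was put on 2 arrays. Whether the arrays of a group repeat 1 combined RNA or hold RNA of separate experiments is not given. SDs and p-values therefore measure the spread between arrays of combined RNA, which may be technical, and not the spread between mice. Donor strain, any antibody and the allogeneic response cannot be told apart in a comparison with the syngeneic array.

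Signals are MAS5 units on Affymetrix arrays. After the scaling in the deposited values, array medians ran from 145 to 174 units. A ratio of 2 or more between the arrays of a group was found for 660 (isotype), 487 (day 0) and 487 (day 3) of 15372 probe sets tested. Changes are differences of log2(signal + 50), which understates the change of genes with low signal, and are given with the standard error (SE) of a limma fit over all 7 arrays. Adjusted p-values are limma's, after Benjamini and Hochberg over all probe sets tested, with a threshold of 0.05. A gene counts as risen or fallen only where it passed that threshold. All 5 genes had a probe set in the test. With 1 or 2 arrays per group, precision is limited throughout. The markers of T cells, natural killer cells, macrophages, neutrophils, B cells and erythroid cells were all measured above 0 on every array, as were those of the other lists described below.

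Ccl5, a ligand of Ccr1 and of other CC receptors that is stored and released by cytotoxic T cells and natural killer cells, had the largest difference between recipients of the 5 genes. Its signal was 7951 on the syngeneic array. It was 2423 and 2226 with isotype antibody, 2188 and 2524 with antibody from day 0, and 1974 and 1962 with antibody from day 3. All 6 allogeneic arrays were thus far below the syngeneic one, at 24.7% to 31.7% of its signal. Among the allogeneic groups, isotype (2325 ± 139, SD, n = 2) and day 0 (2356 ± 238, SD, n = 2) overlapped, and day 3 (1968 ± 8.08, SD, n = 2) lay below the other 4 allogeneic arrays.

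Against the syngeneic array Ccl5 fell by 1.75 on the log2 scale in isotype recipients (SE 0.20, 95% interval −2.24 to −1.27, 3.42-fold lower mean signal, adjusted p = 0.00722). The change was −1.74 in the day 0 group (95% interval −2.22 to −1.25, 3.37-fold, adjusted p = 0.00795) and −1.99 in the day 3 group (95% interval −2.47 to −1.50, 4.04-fold, adjusted p = 0.00538). These 3 comparisons share the single syngeneic array. The fall in isotype recipients passed under all 15 alternative settings (adjusted p of 2.08e-05 to 0.0362), whereas that of the day 0 group missed the threshold without day 0 array 1 (−1.64, adjusted p = 0.0510). That of the day 3 group missed it when only the compared groups were fitted (−1.99, adjusted p = 0.0520), a fit in which 0 of 14658 probe sets passed. Over the alternatives the lowest adjusted p was 2.49e-05 in the day 0 group and 9.25e-06 in the day 3 group. In bulk spleen RNA, fewer cells of a type and less RNA per cell cannot be told apart.

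**Figure D1:**
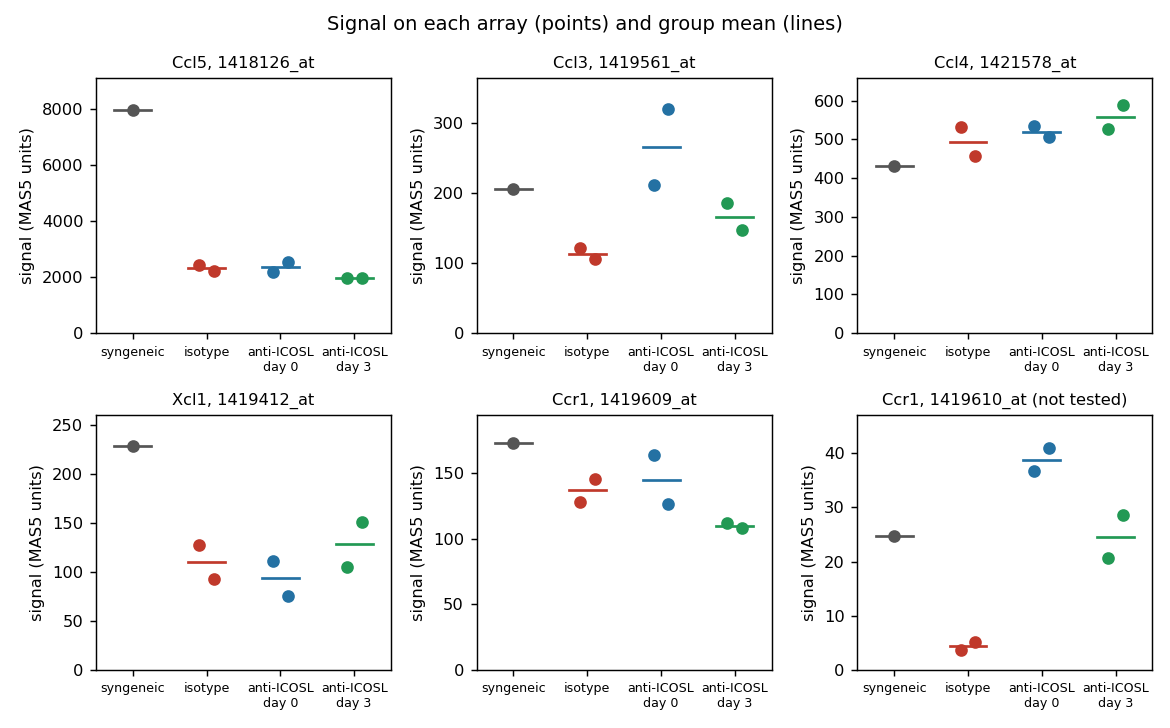
Signal (MAS5 units, linear axis from 0) of the 6 probe sets of Ccl5, Ccl3, Ccl4, Xcl1 and Ccr1 on each array, with points for single arrays and short lines for group means. Ccl5 and Xcl1 were highest on the syngeneic array, Ccl3 was highest on the day 0 arrays, and Ccl4 ran from 430.4 to 589.9.

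Xcl1, known as lymphotactin, also had its highest signal on the syngeneic array. That array gave 229, against 127 and 92.5 with isotype antibody, 111 and 75.7 with antibody from day 0, and 105 and 151 with antibody from day 3. Every allogeneic array was below the syngeneic one, at 33.1% to 66.1% of its signal, and the 3 allogeneic groups overlapped one another. No comparison of Xcl1 passed the threshold. The change against syngeneic was −0.81 in isotype recipients (95% interval −1.48 to −0.14, adjusted p = 0.150), −0.97 in the day 0 group (95% interval −1.64 to −0.30, adjusted p = 0.0954) and −0.66 in the day 3 group (95% interval −1.33 to 0.01, adjusted p = 0.208). Its adjusted p-values in these 3 comparisons stayed above the threshold under the 14 alternatives that tested it, with the lowest at 0.0754 in the day 0 group.

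Ccl3, known as MIP-1α, was highest with anti-ICOSL antibody from day 0 and lowest with isotype antibody. Its signal was 205 in syngeneic recipients, 121 and 106 with isotype antibody, 211 and 320.0 with antibody from day 0, and 185 and 147 with antibody from day 3. The order of group means was day 0 (266 ± 76.8, SD, n = 2), syngeneic, day 3 (166 ± 27.1) and isotype (113 ± 10.9). Both day 0 arrays were above all other arrays, and both day 3 arrays lay between the isotype and the day 0 arrays.

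The day 0 group exceeded isotype by 0.93 in Ccl3 (SE 0.22, 95% interval 0.39 to 1.47, 2.34-fold higher mean signal, adjusted p = 0.529). Over 14 alternatives this difference ranged from 0.68 to 1.18, with adjusted p-values of 0.436 to 0.727. Day 3 exceeded isotype by 0.40 (95% interval −0.14 to 0.94, adjusted p = 0.574), and day 0 exceeded day 3 by 0.53 (95% interval −0.0047 to 1.07, adjusted p = 0.735). Against syngeneic, Ccl3 differed by −0.64 in isotype recipients (95% interval −1.30 to 0.01, adjusted p = 0.225), by 0.29 in the day 0 group (adjusted p = 0.582) and by −0.24 in the day 3 group (adjusted p = 0.621). None of these 6 comparisons passed the threshold.

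Ccl4, known as MIP-1β and a close relative of Ccl3, was the steadiest of the ligands. Its signal was 430.4 in syngeneic recipients, 533 and 456 with isotype antibody, 534 and 505 with antibody from day 0, and 526 and 589.9 with antibody from day 3. The syngeneic array was the lowest of the 7, and the allogeneic groups overlapped. The changes against syngeneic were 0.18 in isotype recipients (95% interval −0.32 to 0.67), 0.25 in the day 0 group (95% interval −0.25 to 0.74) and 0.34 in the day 3 group (95% interval −0.16 to 0.83), with adjusted p-values of 0.664, 0.527 and 0.361. Day 0 and isotype differed by 0.07 (95% interval −0.34 to 0.47), so the interval does not reach the 2-fold change that a log2 difference of 1 would be.

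Ccr1, the receptor among the 5 genes, was measured by 2 probe sets, 1 of them too dim for the test. The brighter probe set gave 174 in syngeneic recipients, 128 and 146 with isotype antibody, 164 and 126 with antibody from day 0, and 112 and 108 with antibody from day 3. The syngeneic array was the highest and the day 3 arrays were the lowest, while isotype and day 0 overlapped. Changes against syngeneic were −0.26, −0.20 and −0.48 in the isotype, day 0 and day 3 groups (adjusted p = 0.529, 0.627 and 0.226). The dim probe set gave 24.7 in syngeneic recipients, 3.67 and 5.17 with isotype antibody, 36.7 and 40.9 with antibody from day 0, and 20.6 and 28.6 with antibody from day 3. It therefore put the isotype arrays lowest and the day 0 arrays highest, an order the brighter probe set did not show.

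Over the 5 genes, 1 (Ccl5) fell and 0 rose in isotype against syngeneic, where 6.62% of all probe sets tested were called and 4.12% were called lower. The same count, again Ccl5 alone, was found in the day 0 group, where 7.03% were called and 4.23% were called lower, and in the day 3 group, where 7.21% were called and 4.32% were called lower. Signals were without overlap for 5 of 5 genes in each of these 3 comparisons, but so were 76.9%, 79.0% and 82.8% of all probe sets tested, as the syngeneic group is 1 array. The median change of the 5 genes was −0.64, −0.20 and −0.48 in these comparisons, beside medians of −0.01, 0.01 and 0.03 over all probe sets tested.

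In the antibody comparisons, 0 of the 5 genes passed, and 0.00% of all probe sets were called by limma in day 0 against isotype, 0.00% in day 3 against isotype and 0.00% in day 0 against day 3. At p under 0.05 before adjustment, limma had 1103, 1573 and 1043 probe sets in them, Ccl3 among the first, and the smallest adjusted p-values were 0.0853, 0.0971 and 0.0914. Both comparisons with isotype share the isotype arrays. Day 0 and isotype arrays did not overlap for 1 of the 5 genes (Ccl3), beside 35.5% of all probe sets. Day 3 and isotype arrays did not overlap for 3 (Ccl3 higher, Ccl5 and Ccr1 lower), beside 43.1%, and day 0 and day 3 arrays for 3 (Ccl3, Ccl5 and Ccr1, all higher on day 0), beside 39.0%. The median change of the 5 genes was 0.06, 0.15 and 0.25, beside 0.02, 0.03 and −0.01 over all probe sets tested.

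**Figure D2:**
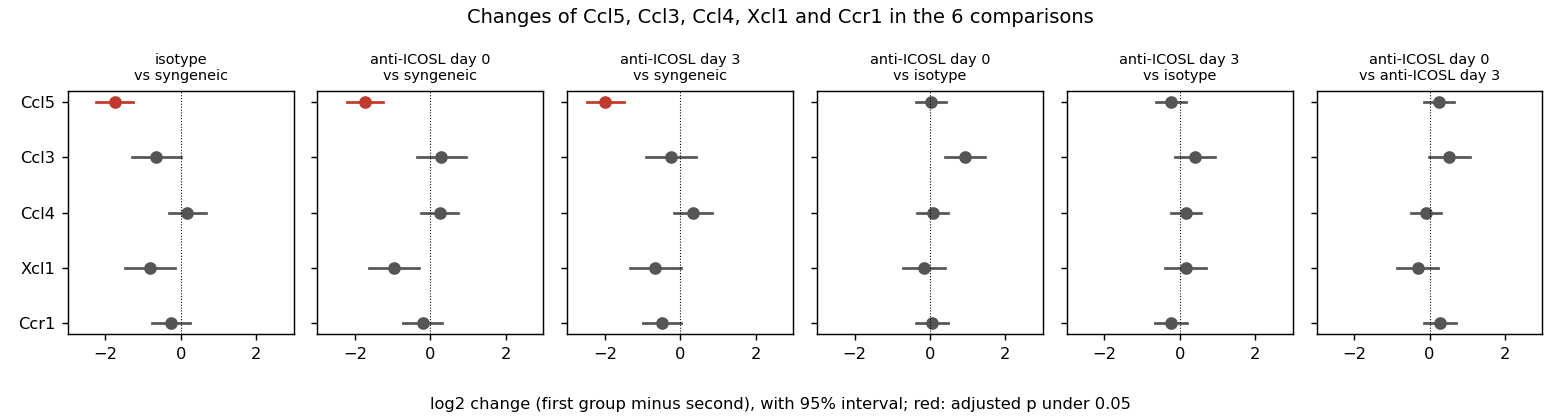
Change of each of the 5 genes in the 6 comparisons, as first group minus second on the log2(signal + 50) scale, with points for estimates and bars for 95% intervals of the limma fit. Red marks an adjusted p under 0.05, which was reached by Ccl5 alone, in the 3 comparisons with the syngeneic array (−1.75, −1.74 and −1.99).

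On mouse chromosome 11 the ligands stand in the order Ccl5, Ccl9, Ccl6, Ccl3, Ccl4 (assembly GRCm38.p6, used for gene order only). Ccl6 and Ccl9 are myeloid CC chemokines of rodents that act through Ccr1. Ccl6 gave 1522 in syngeneic recipients, 1351 and 989 with isotype antibody, 2728 and 3043 with antibody from day 0, and 1122 and 1104 with antibody from day 3. Ccl9 gave 499 in syngeneic recipients, 347 and 303 with isotype antibody, 865 and 819 with antibody from day 0, and 477 and 527 with antibody from day 3. As with Ccl3, both day 0 arrays stood above all other arrays for each gene. A further probe set of Ccl6 gave 349 and 379 on the day 0 arrays against 129 to 221 on the other 5, and one of Ccl9 gave 466 and 329 against 117 to 306.

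Day 0 exceeded isotype by 1.28 in Ccl6 (SE 0.20, 95% interval 0.80 to 1.76, 2.47-fold, adjusted p = 0.240) and by 1.25 in Ccl9 (SE 0.16, 95% interval 0.86 to 1.65, 2.59-fold, adjusted p = 0.159). Neither passed in the main fit. With trend and robust options in limma both passed (adjusted p = 0.0107 for Ccl6 and 0.0265 for Ccl9), and Ccl9 also passed with a filter at the 60th percentile (0.0342), whereas Ccl3 passed under none of the 14 settings that tested it. Day 3 and isotype differed by −0.05 in Ccl6 (adjusted p = 0.948) and by 0.56 in Ccl9 (adjusted p = 0.398). Day 0 exceeded day 3 by 1.33 in Ccl6 (adjusted p = 0.370) and by 0.69 in Ccl9 (adjusted p = 0.618).

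Among the other inflammatory CC and CX3C ligands, 6 of 9 genes were tested, and 0 rose or fell in the isotype or day 0 group against syngeneic. Their median change was −0.02 in the isotype group and 0.77 in the day 0 group. In the day 3 group 1 of 6 rose and 0 fell, with a median of 0.09, and the gene that rose had entered the test only through its day 3 mean. That gene was Cx3cl1, the membrane-bound ligand fractalkine, with a signal of 10.9 in syngeneic recipients, 16.4 and 46.0 with isotype antibody, 81.4 and 40.1 with antibody from day 0, and 159 and 263 with antibody from day 3. Its change against syngeneic was 2.07 (SE 0.38, adjusted p = 0.0297). The call was kept in 7 of 14 alternatives and was lost when either day 0 array or either day 3 array was left out (adjusted p up to 0.0984 without day 3 array 2), and the other 2 probe sets of Cx3cl1 were too dim for the test and not highest on the day 3 arrays. Ccl8, a monocyte-attracting ligand, was higher than syngeneic by 0.95 in isotype recipients (adjusted p = 0.278). Of 9 lymphoid CC ligands, 7 had a probe set of their own and only 2, Ccl1 and Ccl22, were tested. Of these 2, 0 passed in any comparison, and the other genes of the list are not covered by this result. Ccl1 differed by 0.89 (adjusted p = 0.138) and Ccl22 by −0.89 (adjusted p = 0.387) in isotype against syngeneic. The filter favoured these differences and that of Ccl8. Ccl22 reached it only on the syngeneic array, and Ccl1 and Ccl8 only in allogeneic groups.

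**Figure D3:**
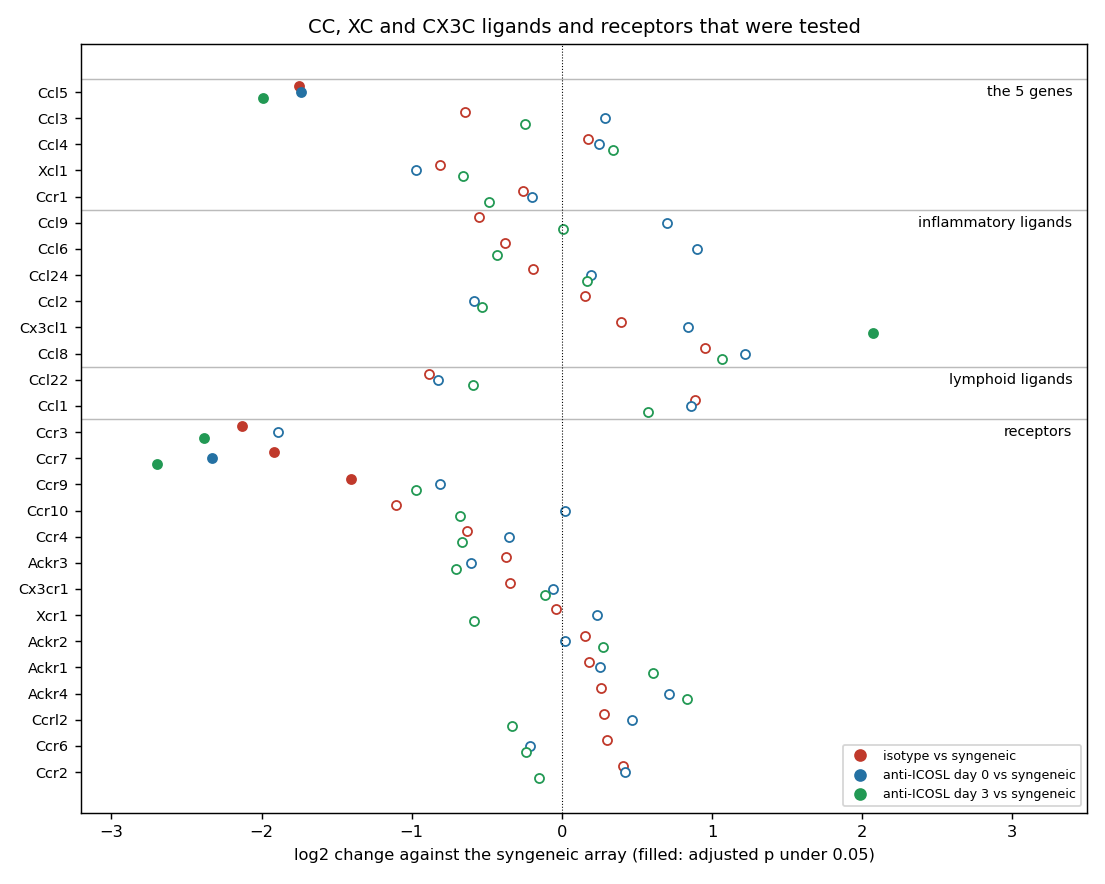
Change against the syngeneic array, on the log2(signal + 50) scale, for each tested ligand and receptor of the CC, XC and CX3C families, in isotype, day 0 and day 3 recipients. Filled points passed an adjusted p of 0.05; beside Ccl5 these were Cx3cl1 in the day 3 group and the receptors Ccr3, Ccr7 and Ccr9 in some groups.

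Among the other CC, XC, CX3C and atypical receptors, 14 of 16 genes were tested. In isotype against syngeneic 0 rose and 3 fell (Ccr3, Ccr7 and Ccr9), in the day 0 group 1 fell (Ccr7) and in the day 3 group 2 fell (Ccr3 and Ccr7), with medians of −0.19, −0.02 and −0.46. For Ccr3 and Ccr9 the syngeneic group was the only one whose mean reached the filter of 99.7 units. The filter itself therefore favoured a fall of these genes against the syngeneic array, which is not so for Ccr7. Ccr7, which guides naive T cells, B cells and mature dendritic cells into lymphoid tissue, gave 1425 in syngeneic recipients, 406 and 284 with isotype antibody, 314 and 187 with antibody from day 0, and 176 and 179 with antibody from day 3. All 6 allogeneic arrays were below the syngeneic one. Ccr7 fell in the isotype, day 0 and day 3 groups, with changes of −1.92, −2.33 and −2.70 (adjusted p = 0.0225, 0.0134 and 0.00861). The call in isotype recipients was lost without isotype array 2 (adjusted p = 0.0793) and with no filter (0.0509), and that in the day 0 group without day 0 array 2 (0.0570).

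Ccr3, the eotaxin receptor of eosinophils and basophils, gave 364 on the syngeneic array and 16.4 to 91.0 on the 6 allogeneic arrays. Its change was −2.13 in isotype recipients (adjusted p = 0.0446), −1.89 in the day 0 group (adjusted p = 0.0607) and −2.38 in the day 3 group (adjusted p = 0.0330). The isotype call was kept in 3 of 15 alternatives and was lost when any single allogeneic array was left out (adjusted p of 0.0521 to 0.116). The day 3 call was kept in 7 of 15 and was lost when any single day 0 or day 3 array was left out (adjusted p up to 0.110). Ccr9, the gut-homing receptor, gave 178 in syngeneic recipients, 38.7 and 33.5 with isotype antibody, 100.3 and 61.8 with antibody from day 0, and 56.2 and 76.3 with antibody from day 3. It fell by 1.40 in isotype recipients (adjusted p = 0.0278), a call that 7 of 14 alternatives kept and that was lost without isotype array 1 (0.0777), isotype array 2 (0.0953) or day 3 array 1 (0.0512). Another tested probe set of Ccr9 gave 145 on the syngeneic array and 24.9 to 83.2 on the allogeneic arrays. It too reached the filter only on the syngeneic array, and its isotype mean (76.9) was the highest of the allogeneic groups. A further probe set of Ccr9 was too dim for the test. It gave 36.7 on the syngeneic array and 2.43 to 90.7 on the allogeneic arrays, and thus showed no fall. Ccr10, a skin-homing receptor, differed by −1.11 (adjusted p = 0.257).

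Xcr1, the receptor of Xcl1, had low signals of 78.4 in syngeneic recipients, 66.9 and 83.4 with isotype antibody, 98.6 and 104 with antibody from day 0, and 21.0 and 53.0 with antibody from day 3. The day 0 arrays were the highest and the day 3 arrays the lowest, with a difference of 0.82 between these groups (adjusted p = 0.649). Xcr1 was tested only because its day 0 mean of 101 reached the filter, so that this difference is partly set by the filter. Ccr2, the main receptor for monocyte recruitment, gave 376 in syngeneic recipients, 521 and 509 with isotype antibody, 523 and 514 with antibody from day 0, and 341 and 326 with antibody from day 3. Day 3 was below isotype by 0.56 (adjusted p = 0.398), which did not pass. In other tested probe sets of Ccr2 these groups overlapped. One gave 346 and 447 on isotype and 362 and 325 on day 3 arrays, and another gave 95.4 and 125 against 129 and 48.1. Xcr1 and Ccr2 were both named after their values were seen.

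Downstream of the receptors, 19 of 22 receptor signalling genes were tested. In isotype against syngeneic 0 rose and 2 fell, Rgs2, a regulator that ends G protein signalling, and Arrb1, the β-arrestin that desensitises receptors. Of all probe sets tested, 6.62% were called in that comparison and 4.12% were called lower. Rgs2 gave 814 on the syngeneic array and 56.5 to 141 on the allogeneic arrays, and fell by 2.21 in isotype recipients (adjusted p = 0.0195). Arrb1 gave 543 against 90.3 to 193 and fell by 1.83 (adjusted p = 0.0184). Both also fell in the day 0 group (−2.39 and −1.89, adjusted p = 0.0155 and 0.0161) and in the day 3 group (−2.62 and −1.46, adjusted p = 0.0127 and 0.0365).

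The Rgs2 call in isotype recipients was lost without either isotype array (adjusted p = 0.0670 and 0.0765), and the Arrb1 call without isotype array 2 (0.0591). In the day 0 group both were lost without either day 0 array (adjusted p of 0.0672 and 0.0823 for Rgs2, 0.0721 and 0.0841 for Arrb1). In the day 3 group Arrb1 was kept in 6 of 15 alternatives and was lost without either day 0 array (0.0756 and 0.0746) or either day 3 array (0.115 and 0.0844). Rgs1, another such regulator, fell in the day 3 group alone among the calls (−1.06, adjusted p = 0.0443, kept in 4 of 15 alternatives, and lost without any single allogeneic array, with adjusted p up to 0.161). Its change in isotype recipients was −0.81 (adjusted p = 0.0941). Pik3cg, the phosphoinositide 3-kinase that chemokine receptors activate, rose in the day 0 group by 0.90 (adjusted p = 0.0450), a call kept in 4 of 15 alternatives and lost without any single allogeneic array (adjusted p up to 0.138). Rgs16 differed by 0.83 in isotype recipients (adjusted p = 0.316), and it reached the filter only in the isotype and day 0 groups.

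Of the regulators of chemokine genes, 16 of 18 were tested, with 1 risen (Tbx21) and 1 fallen (Fos) in isotype and in day 0 recipients, and 0 risen and 1 fallen (Fos) in day 3 recipients. Fos, an AP-1 subunit induced early after cell stimulation, gave 2515 in syngeneic recipients, 305 and 284 with isotype antibody, 611 and 568 with antibody from day 0, and 396 and 450.4 with antibody from day 3. It fell in all 3 groups against syngeneic, with changes of −2.90, −2.00 and −2.44 (adjusted p = 0.00231, 0.00515 and 0.00352), and the fall in isotype recipients passed under all 15 alternatives. Tbx21, which encodes T-bet, the master regulator of type 1 and cytotoxic lymphocytes, gave 857 on the syngeneic array and 1650.0 to 2689 on the allogeneic arrays. It rose by 1.38 in isotype recipients (adjusted p = 0.0295) and by 1.46 in the day 0 group (adjusted p = 0.0242), and the day 3 difference was 1.11 (adjusted p = 0.0530). The isotype call was lost without either isotype array or either day 0 array (adjusted p of 0.0580 to 0.0997), and the day 0 call without either day 0 array (0.106 and 0.0773). Nfatc1, a calcium-regulated factor of activated T cells, differed by 1.05 (adjusted p = 0.0540) and Eomes, a relative of T-bet, by −0.73 (adjusted p = 0.315) in isotype recipients. Beside the counts of these 5 lists against syngeneic, 6.62% (isotype), 7.03% (day 0) and 7.21% (day 3) of all probe sets tested were called. In the antibody comparisons 0 genes of these 5 lists passed.

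Marker lists of several cell types also differed between allogeneic and syngeneic recipients. Their counts stand beside the same shares of all probe sets called, 6.62%, 7.03% and 7.21% in the isotype, day 0 and day 3 groups. Of 11 tested T cell markers 4 rose (Cd247, Cd4, Thy1 and Cd28) and 0 fell in isotype recipients, and their summed signal was 31127 in syngeneic and 46292 to 51435 in isotype recipients. For natural killer and cytotoxic cells 3 of 8 rose (Gzma, Gzmb and Prf1, the granule proteins of killer cells) and 0 fell, with sums of 19731 on the syngeneic array and 60604 to 69737 on the allogeneic arrays. Gzma and Gzmb, the brightest genes of the list, carry most of that sum. Of the natural killer cell receptors in the same list 0 passed in isotype recipients. Klrd1 gave 1395 on the syngeneic array and 569 to 955 on the allogeneic arrays, and Klra8 gave 136 against 1.65 to 38.8. Klra8 reached the filter only on the syngeneic array. Ncr1 gave 464 on the syngeneic array, 388 and 308 on isotype, 809.8 and 642 on day 0, and 461 and 590.3 on day 3 arrays. Klrk1 gave 1332 on the syngeneic array and 1187 to 1522 on the allogeneic arrays. Of the T cell list, Cd8b1 gave 3121 against 1737 to 2373, also with no call. For macrophages, 12 of 12 markers fell in each allogeneic group, with a sum of 55292 on the syngeneic array against 7812 to 8264 on isotype, 12838 on both day 0 and 10294 to 11569 on day 3 arrays. Of these markers Cd163 reached the filter only on the syngeneic array.

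Neutrophil markers fell for 7 of 9, 6 of 9 and 6 of 9 genes in the isotype, day 0 and day 3 groups, with a sum of 37557 on the syngeneic array and 9896 to 13700 on the allogeneic arrays. Among the neutrophil markers tested, Mmp9 reached the filter only on the syngeneic array. Monocyte markers fell for 3 of 6 in isotype and day 3 recipients (Lyz2, Fn1 and Cd14) and for 1 in day 0 recipients (Cd14), with sums of 9073 and of 2914 to 4869. B cell markers fell for 0, 3 and 3 of 6 (Cd79a, Cd79b and Ms4a1) and erythroid markers for 4, 7 and 3 of 7 in the isotype, day 0 and day 3 groups. Sums of the dendritic cell (985 to 1481), platelet (1047 to 1528) and basophil and mast cell markers (1074 to 1749) varied less over the 7 arrays, with 1 call, a fall of Kit in isotype recipients. No marker of these lists was at 0, and the lowest signal was 1.65, for Klra8, a natural killer cell receptor. The part of these cells in the fall of Ccl5, or in the lower Xcl1 signals, was not tested.

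Beside the higher Ccl3, Ccl6 and Ccl9 signals of the day 0 group, the summed myeloid markers were higher than in isotype recipients, although 0 of these markers passed in that comparison. Of 12 macrophage markers, 11 were higher in day 0 than in isotype recipients (median change 0.50), and the sums did not overlap (12838 on both day 0 arrays against 7812 and 8264). Of the monocyte markers 4 of 6, and of the neutrophil markers 7 of 9, were higher. Of all probe sets tested, 52.7% were higher in day 0 than in isotype recipients, and 35.5% did not overlap between these groups. Monocyte sums were 4731 and 4869 on day 0 arrays against 3288 and 3751 on isotype arrays, and neutrophil sums were 12760 and 13700 against 9896 and 10391. On day 3 arrays the macrophage sums lay in between, while the monocyte sums (2914 and 3110) were below isotype. The part of these cells in the Ccl3, Ccl6 and Ccl9 differences was not tested.

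**Figure D4:**
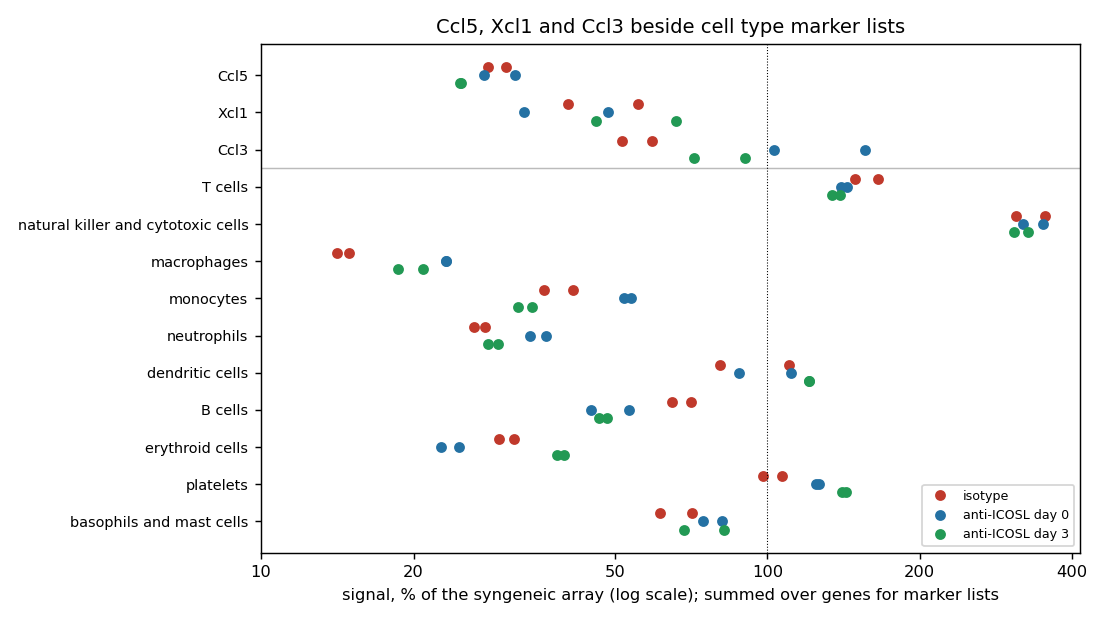
Signal as a percentage of the syngeneic array (log axis) on each allogeneic array, for Ccl5, Xcl1 and Ccl3 and for the summed signal of 10 cell type marker lists. Ccl5 lay at 24.7% to 31.7%, the natural killer and cytotoxic list at 307% to 353%, a sum carried mostly by Gzma and Gzmb, and the macrophage list at 14.1% to 23.2%.

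Genes with the most similar profile were sought among 8962 tested genes, by the root mean square (RMS) difference of centred log2 values over the 7 arrays, as a description. Nearest to Ccl5 were H2-K1, a class I MHC gene that presents peptides to CD8 T cells (RMS 0.068), P2rx4, an ATP-gated ion channel (0.081), and Atp8a1, a phospholipid flippase (0.095). H2-K1 gave 36695 on the syngeneic array and 9439 to 11161 on the allogeneic arrays. The C3H donors were MHC-mismatched, and whether this probe set reads the H2-K1 of both strains alike was not tested. In all, 34 genes lay within 0.2 of Ccl5, whose own values had an RMS of 0.65 about their mean. The profile of Xcl1 was nearest to Ice1 (0.052), Col5a1 (0.090) and Phf5a (0.114), with 188 genes within 0.2. For Ccl3 the nearest were Fbxo3 (0.109), Ndfip1 (0.124) and Top3a (0.138), with 17 genes within 0.2. For comparison, Ccl4 (nearest Fancl, Ccdc82 and Srsf9, at 0.040 to 0.053) and Ccr1 (nearest Sft2d1, Purb and Lrwd1, at 0.044 to 0.054) varied little and had 2632 and 1605 genes within 0.2. The profiles share arrays and scaling. The highest and the lowest signal differed 4.05-fold for Ccl5 over all arrays and 1.29-fold over the allogeneic arrays alone, and for Xcl1 3.02-fold and 1.99-fold.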

How the data were processed

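Each of 7 arrays received 10 µg of spleen RNA. The authors deposited 1 intensity per probe set, a MAS5 signal per the submitters' processing notes, which give no version; the 2% trimmed mean of each array is 500.2. Of 22690 probe sets, 64 controls were left out; 20380 carried 1 gene symbol, 691 several and 1555 none. IDs of 20351 matched the RefSeq gene table.

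Signals were taken as log2(signal + 50) and fitted with limma 3.58.1 in R 4.3.3 over 4 groups (3 residual and 3.36 prior degrees of freedom). The fit takes the spread of the single syngeneic array from the other groups. Probe sets were tested where a group mean reached the 40th percentile of all signals (99.7 units), which left 15372. A gene is counted through its brightest probe set. On simulated data the procedure recovered 12.5% of 2-fold and 98% of 4-fold changes in isotype against syngeneic. In day 0 against isotype it recovered 35.5% and 100%. A 2-fold change was thus missed more often than found.

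The genes and lists (15 lists, 168 genes) were chosen with earlier results of these data known. From each pathway list, up to 4 genes with the largest change in isotype against syngeneic are named, with those behind small counts, and 3 nearest profiles per gene. Alternatives were pseudocounts of 16 and 100, a 60th percentile filter or none, quantile normalization, median centring, a replicate block, fits of the compared groups alone, trend with robust options, and leaving out each allogeneic array.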

Additional observations from a re-analysis of the deposited data

How the results depend on the processing

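Of 432 alternative values for the 5 genes, 430 kept their side of the threshold, and the other 2 were the Ccl5 calls given in the text. Only 3 of the 30 main results of the 5 genes were calls. The number of the 5 genes called in day 0 against syngeneic ranged from 0 to 1 when single arrays were left out (0 without day 0 array 1). In day 3 against syngeneic it was 0 when only the compared groups were fitted. In that fit 0 of all probe sets passed, with 1 residual degree of freedom for each. For the other named genes, 1697 of 1812 alternative values kept their side, 87 lost a call and 28 gained one, and no called value changed its sign. Only 20 of the 126 main results of these genes were calls, and the 87 losses all fell on those.

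Over all probe sets the count called in isotype against syngeneic was 1017, with 542 without a filter, 568 in the fit of the compared groups, 1616 at the 60th percentile and 1786 with trend and robust options, and 410 to 692 without single arrays. For day 0 the count was 1081, with 552 without a filter, 1783 at the 60th percentile, 1945 with trend and robust options and 246 to 931 without single arrays. For day 3 it was 1108, with 526, 1794, 1898 and 276 to 912. In the antibody comparisons (isotype with day 0, isotype with day 3, and day 0 with day 3) the counts of 0 became 13, 8 and 7 at the 60th percentile, 21, 5 and 12 with trend and robust options, and 3, 2 and 6 with a pseudocount of 100. Ccl3, Xcl1 and Ccr1 were not tested at the 60th percentile.

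With the replicate number as a replicate block, Ccl5 changed by −1.77, −1.75 and −2.00 against syngeneic (adjusted p = 0.0236, 0.0249 and 0.0195), and the counts over all probe sets were 640, 641 and 615. Deviations of arrays with the same number correlated at −0.01, 0.07 and 0.04, which shows no large shift shared by arrays of a number. Whether such arrays come from the same experiment cannot be told from these values. Low signals limit genes such as Xcl1, Ccr3, Ccr9, Xcr1 and Cx3cl1.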
